A study of Mus musculus with 6 samples.

Results

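The signals of 10 marrow macrophage genes were followed in sorted MEP, the megakaryocyte-erythroid progenitors of the marrow from which red cells and platelets derive. They were C1qa, C1qb, C1qc, Vcam1, Adgre1, Cd5l, Spic, Siglec1, Axl and Mertk, listed as genes of the macrophage at the centre of the erythroblastic island and taken here as a measure of macrophage material carried along with the sorted cells. Members were found by symbol in the array's annotation, which gave each of them 1 probe set; all 10 were found among the 22180 genes with a name. RNA had been measured on 6 Affymetrix arrays, 3 of T-bet knockout and 3 of wild-type animals, both on the C57BL/6 strain, and the labels describe the 3 arrays of each group as different animals. MEP were stained with fluorochrome-coupled antibodies and sorted from fresh whole marrow. The sources used here do not give the antibodies, the purity of the sort, the age of the mice or the design of the T-bet (Tbx21) allele.

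In the erythroblastic island a resident macrophage holds a ring of maturing erythroblasts, supplies them with iron and engulfs the nuclei they expel. The contact runs in part through VCAM1 on the macrophage and the integrin of ITGA4 and ITGB1 on the erythroblast. The macrophage is also recognised by F4/80 (Adgre1) and CD169 (Siglec1), takes up dying cells and nuclei through receptors such as MERTK and AXL, and secretes complement C1q. In bulk RNA from sorted cells, fewer cells of a type and less RNA per cell cannot be told apart.

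None of the 10 genes differed between knockout and wild-type MEP beyond the spread between arrays. Adjusted over all 41345 probe sets, 0 of the 10 passed limma's adjusted p of 0.05, against 0% of all probe sets. At an unadjusted limma p under 0.05 there were 0 of 10, against 3.13% of all genes; C1qa alone came under it in 3 alternative fits, given with its values. The knockout and wild-type values overlapped for every one of the 10, and the groups did not overlap for 8.70% of all genes. For 10 genes, 0 without overlap is near that share. The differences (knockout minus wild type, log2) ran from -0.31 for C1qa to 0.15 for Cd5l, with 7 below 0 and 3 above, and had a median of -0.07; all 22180 genes had a median of 0.00 and 11479 of them lay below 0. limma's 95% interval kept all 10 genes within a 2-fold difference and 9 within a 1.5-fold one, C1qa being the exception. Of all genes, 98.0% and 85.9% were bounded in these ways. With 3 arrays against 3 the exact permutation test cannot give a p below 0.1.

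**Figure D1:**
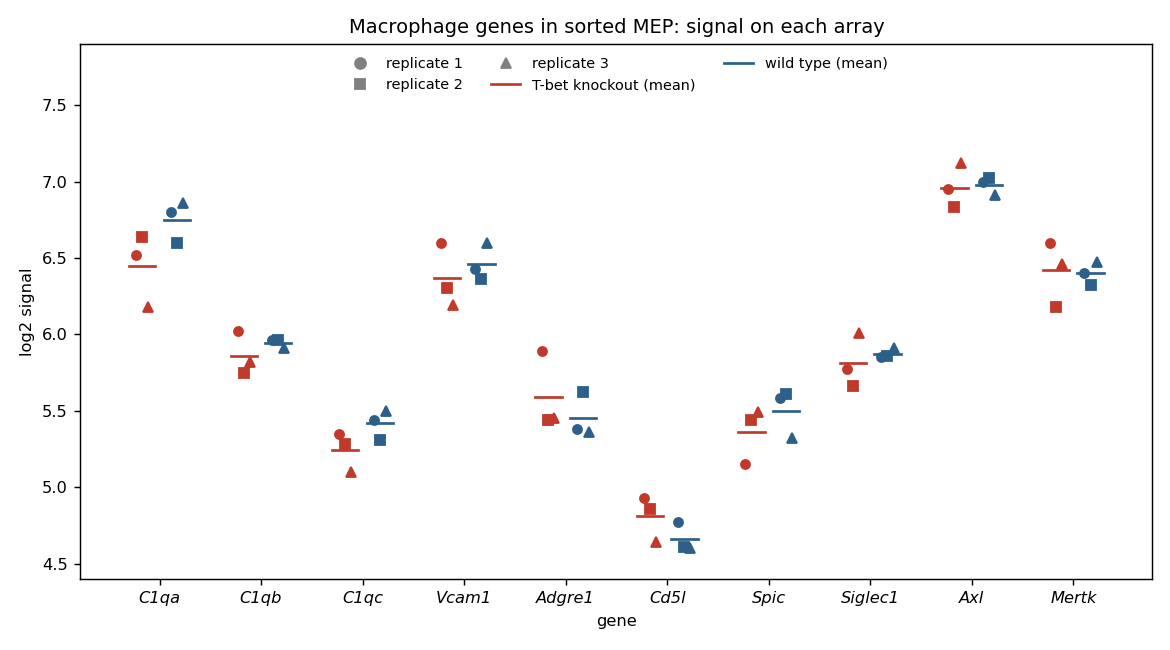
Log2 signal (vertical axis) of the 10 genes (horizontal axis) on each of the 6 arrays, knockout in red and wild type in blue, with symbols for the replicate number and a bar for the mean of 3 arrays. For every gene the red and the blue symbols overlap, and C1qa has the widest span, from 6.18 to 6.86.

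Of the whole series, the following bears on these values. Array medians ran from 6.44 to 6.53. Tbx21 read 6.41 to 6.60 in knockout and 6.54 to 6.62 in wild-type arrays, so it gave no check of the genotype; the sources used here do not give the exons its probe set covers. Knockout replicates 1 and 2 and wild-type replicate 1 carried both Xist (11.79 to 11.83), made by female cells, and the Y-linked genes Eif2s3y and Uty (8.36 to 8.86), which does not go with 1 animal per array. Without these 3 arrays the median difference of the 10 genes was -0.01, and with sex-linked class as a block it was -0.06. Wild-type replicate 2 carried Xist alone, and replicate 3 of each group Y-linked signal alone. That block therefore takes wild-type replicate 2 out of the group difference. p-values below measure the spread between these 6 arrays. Defining genes of MEP read well above the array medians, with Gata1 and Klf1, erythroid transcription factor genes, at 10.96 and 10.66 and the stem cell factor receptor gene Kit at 12.01 (means over 6 arrays).

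The mean signals of the 10 macrophage genes lay between 4.73 (Cd5l) and 6.97 (Axl). Cd5l, C1qc, Spic and Adgre1 fell in the dimmest 30% of probe sets, those with a mean up to 5.70. Detection calls were not used here, so which of these signals stood above the array's background is unknown. Xist read 5.42 and 5.56 on the arrays with Y-linked signal alone. Eif2s3y and Uty read 4.95 and 5.22 on wild-type replicate 2, which carried Xist alone. Cd5l, C1qc, Spic and Adgre1 had means of 4.73, 5.33, 5.43 and 5.52, a similar level. A difference between dim signals can understate a difference in RNA. Probe sets bind their targets unequally, so the order of the signals is no order of transcript levels.

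C1qa, C1qb and C1qc encode the A, B and C chains that together form C1q, the recognition unit that starts the classical complement pathway and that coats dying cells. The genes are direct neighbours on chromosome 4, in the order C1qb, C1qc and C1qa in the RefSeq annotation of GRCm38.p6. To show the letters upstream of single genes within this cluster, the 250 bases before the RefSeq start are given, 5′ to 3′ on the gene's strand. They are given for C1qb and C1qc, the genes of the cluster with a matched window. Capitals mark the letters GAGGAA, or TTCCTC where the match lies on the other strand, the purine-rich core bound by ETS factors such as PU.1 and Spi-C. The C1qb window is chr4:136886201-136886450 and the C1qc window chr4:136892915-136893164, both on the minus strand of GRCm38.p6.
C1qb: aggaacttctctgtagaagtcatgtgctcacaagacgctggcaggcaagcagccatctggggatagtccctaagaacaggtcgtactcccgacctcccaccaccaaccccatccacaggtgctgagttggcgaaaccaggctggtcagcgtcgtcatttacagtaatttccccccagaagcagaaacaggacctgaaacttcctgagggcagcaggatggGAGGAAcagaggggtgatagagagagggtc
C1qc: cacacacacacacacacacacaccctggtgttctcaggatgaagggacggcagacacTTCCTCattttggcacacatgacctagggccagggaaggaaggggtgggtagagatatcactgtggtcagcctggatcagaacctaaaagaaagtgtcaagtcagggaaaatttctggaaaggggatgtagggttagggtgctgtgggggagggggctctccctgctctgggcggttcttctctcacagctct
The match begins 30 bases before the start in C1qb and 193 bases before it in C1qc. Upstream windows were matched for 6 of the 10 genes, and 4 of these held the letters on either strand (C1qb, C1qc, Cd5l and Axl) while Mertk and Spic did not. Of all 32851 windows of the same length, 23.3% held them. A match is a description of the sequence and shows no binding.

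C1qa read 6.52, 6.64 and 6.18 on the knockout arrays (replicates 1 to 3) and 6.80, 6.60 and 6.86 on the wild-type arrays, in the same order; values of the other genes follow that order. The lowest value was that of knockout replicate 3, and the groups overlapped through knockout replicate 2, which lay just above wild-type replicate 2. The means were 6.45 ± 0.24 and 6.75 ± 0.14 (SD, n = 3 each). The difference was -0.31 (SE 0.15, 95% interval -0.66 to 0.05), or 0.809-fold with an interval of 0.635 to 1.03. It did not pass limma's test (p = 0.0782, adjusted p = 1.00), and the exact permutation test gave p = 0.200. Without knockout replicate 3 it was -0.17, and without the 3 arrays that carry both Xist and Y-linked signal it was -0.55 (limma adjusted p = 0.575, unadjusted 0.0474). The knockout side of that fit is knockout replicate 3 alone, the lowest C1qa value. Wild-type replicate 2, the lowest wild-type C1qa value, was the only array with Xist alone. A block of sex-linked class therefore takes that array out of the group difference. With sex-linked class as a block the difference was -0.42 (limma adjusted p = 0.914, unadjusted 0.0453). Without knockout replicate 2 it was -0.40 (limma adjusted p = 1.00, unadjusted 0.0437). In each of these last 3 fits 1 of the 10 genes, C1qa, had an unadjusted p under 0.05.

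C1qc, a dim probe set, read 5.35, 5.28 and 5.10 in the knockout and 5.44, 5.31 and 5.50 in the wild type. Its lowest and highest arrays were those of C1qa, knockout replicate 3 and wild-type replicate 3. The difference was -0.18 (SE 0.11, 95% interval -0.44 to 0.08; limma adjusted p = 1.00, exact permutation p = 0.200). Without knockout replicate 3 it was -0.11. C1qb read 6.02, 5.75 and 5.82 in the knockout and 5.96, 5.96 and 5.91 in the wild type. Its wild-type values all lay inside the knockout range, and the difference was -0.08 (SE 0.10, 95% interval -0.32 to 0.16).

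Vcam1 encodes the adhesion molecule by which the central macrophage holds integrin-bearing erythroblasts; endothelial and stromal cells of the marrow make it too. It read 6.60, 6.30 and 6.19 in the knockout and 6.43, 6.36 and 6.60 in the wild type. Knockout replicate 1 and wild-type replicate 3 were highest, and the difference was -0.10 (SE 0.14, 95% interval -0.42 to 0.23). Siglec1, the sialic acid-binding lectin CD169, read 5.77, 5.66 and 6.01 in the knockout and 5.85, 5.86 and 5.91 in the wild type. The knockout arrays held both its lowest and its highest value, and the difference was -0.06 (SE 0.12, 95% interval -0.33 to 0.22).

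Adgre1, the adhesion-type receptor F4/80 used to stain mouse macrophages, was a dim probe set at 5.89, 5.44 and 5.45 in the knockout and 5.38, 5.62 and 5.36 in the wild type. Knockout replicate 1 stood above the remaining arrays. The difference was 0.14 (SE 0.15, 95% interval -0.23 to 0.51), and without knockout replicate 1 it was -0.01. Cd5l, a secreted scavenger protein of tissue macrophages, was the dimmest of the 10 at 4.93, 4.86 and 4.64 in the knockout and 4.77, 4.61 and 4.60 in the wild type. Knockout replicates 1 and 2 were its highest arrays, while knockout replicate 3 lay among the wild-type values. The difference was 0.15 (SE 0.11, 95% interval -0.13 to 0.42; limma adjusted p = 1.00, exact permutation p = 0.200).

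Spic encodes Spi-C, an ETS transcription factor of iron-recycling macrophages of spleen and marrow. It read 5.15, 5.44 and 5.49 in the knockout and 5.58, 5.61 and 5.32 in the wild type. Knockout replicate 1, the highest array for Adgre1, Cd5l, C1qb, Vcam1 and Mertk, was the lowest for Spic. The difference was -0.14 (SE 0.14, 95% interval -0.47 to 0.18). The iron-recycling genes Hmox1, which encodes heme oxygenase, and Slc40a1, which encodes the iron exporter ferroportin and is also made by erythroid cells, differed by 0.06 (95% interval -0.33 to 0.45) and 0.04 (95% interval -0.24 to 0.31).

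Axl and Mertk encode receptor tyrosine kinases of the TAM family, which bind dying cells through the bridging proteins GAS6 and protein S. Axl read 6.95, 6.83 and 7.12 in the knockout and 7.00, 7.02 and 6.91 in the wild type. All wild-type values lay inside the knockout range, and the difference was -0.01 (SE 0.11, 95% interval -0.26 to 0.24). Mertk, the receptor by which macrophages take up expelled nuclei, read 6.60, 6.18 and 6.46 in the knockout and 6.40, 6.32 and 6.47 in the wild type. Again the wild-type values lay inside the knockout range, and the difference was 0.02 (SE 0.13, 95% interval -0.29 to 0.33). Tyro3, the third receptor of the family, read 6.12, 5.92 and 5.84 in the knockout and 6.06, 6.18 and 6.34 in the wild type, a difference of -0.23 (SE 0.12, 95% interval -0.52 to 0.06). The ligand genes Gas6 and Pros1 differed by 0.07 (95% interval -0.22 to 0.37) and 0.03 (95% interval -0.20 to 0.26).

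**Figure D2:**
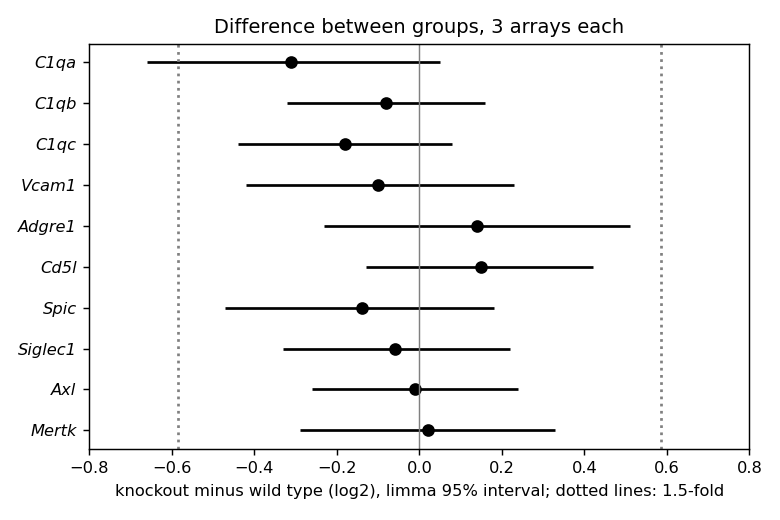
Difference in log2 signal between knockout and wild-type arrays (horizontal axis, 3 arrays each) for the 10 genes (vertical axis), with limma's 95% interval as a line and 1.5-fold in either direction dotted. All 10 intervals include 0, and that of C1qa, from -0.66 to 0.05, is the one that passes a dotted line.

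The 10 genes did not vary as 1 block from array to array. Over the 45 pairs, Pearson's r across the 6 arrays was above 0 in 26, with a median of 0.07; the median of Spearman's rho was -0.03. No pair passed after Benjamini-Hochberg adjustment over the 45 (exact permutation test over 720 pairings, smallest adjusted p = 0.562 for r and 0.973 for rho). With 720 pairings this permutation test allows no p below 0.00139. A single pair could therefore not pass 0.05 after adjustment over 45, however closely its genes ran together. The closest pair was C1qa and C1qc, at r = 0.95 (exact permutation p = 0.0125, adjusted 0.562) and rho = 0.77 (exact permutation p = 0.103, adjusted 0.973). For this pair r was 0.69 over the 4 arrays left after dropping the 2 farthest from the C1qa median. Over deviations from the group means its r was 0.91. C1qa and C1qb, which lie in the same cluster, gave r = 0.27 (exact permutation p = 0.614, adjusted 0.914) and rho = -0.14 (exact permutation p = 0.803, adjusted 0.976). C1qc and Vcam1 gave r = 0.82 (exact permutation p = 0.0403, adjusted 0.771) and rho = 0.83 (exact permutation p = 0.0583). For this pair r was 0.38 without the 2 arrays farthest from the C1qc median. Siglec1 and Axl also gave r = 0.82 (exact permutation p = 0.0514, adjusted 0.771) and rho = 0.66 (exact permutation p = 0.175). Their r was -0.20 without the 2 arrays farthest from the Siglec1 median. Cd5l and Siglec1 ran opposite, at r = -0.76 (exact permutation p = 0.0875, adjusted 0.800) and rho = -0.77 (exact permutation p = 0.103). Their r was -0.40 without the 2 arrays farthest from the Cd5l median.

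**Figure D3:**
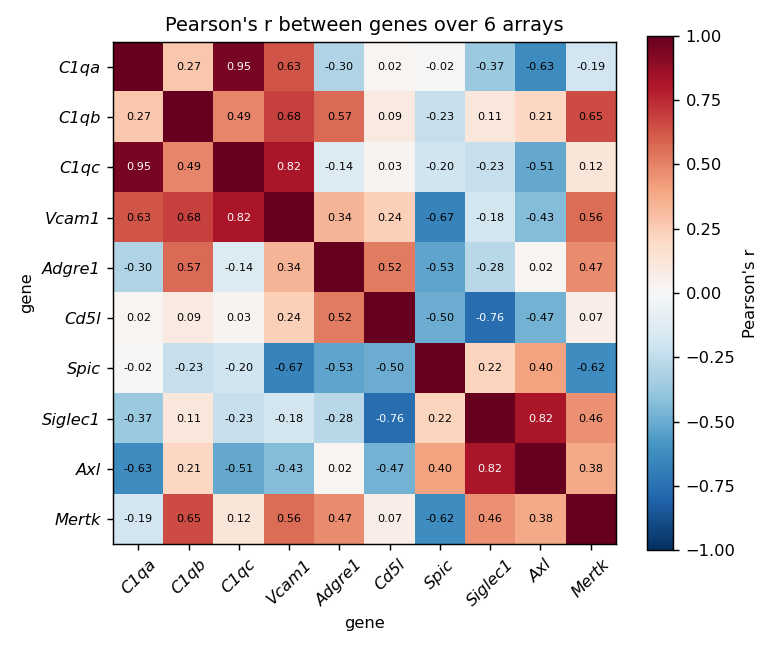
Pearson's r between each pair of the 10 genes over the 6 arrays, red above 0 and blue below; both axes list the genes. C1qa and C1qc stand at 0.95, Spic is below 0 with 7 of the other genes, and the 45 pairs have a median of 0.07.

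Averaged over the 10 genes, the deviation from each gene's 6-array mean was 0.06, -0.08 and -0.07 on knockout replicates 1 to 3 and 0.05, 0.01 and 0.03 on the corresponding wild-type arrays. Knockout replicate 1 and wild-type replicate 1 were highest, and they were also the arrays with the highest median over all probe sets, 6.53 and 6.51 against 6.44 to 6.47 in the remaining arrays. Across the 6 arrays the mean deviation and the array median gave r = 0.75 (exact permutation p = 0.0958) and rho = 0.77 (exact permutation p = 0.103). Without these 2 arrays r was 0.36. The medians left then span only 6.44 to 6.47, so this value cannot tell whether the relation rests on the 2 arrays. With each array's median subtracted, the mean deviations were 0.01, -0.06 and -0.04 in the knockout and 0.01, 0.05 and 0.03 in the wild type. The span over arrays, 0.14 before subtraction, was 0.65 for 11 B cell genes, 0.32 for 10 erythroblast genes and 0.03 for 11 MEP genes. The SD over 6 arrays had a median of 0.14 over the 10 macrophage genes and 0.14 over all genes.

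Among the 14631 genes outside the dim 30% that are neither members nor predicted genes or clones, those whose 6 values ran most like the members' mean deviation were Platr6, Vrtn, Col19a1, Vill, Cdr2l, Gpr26, Atg16l2 and Esrra, at r = 0.984 to 0.997 over 6 arrays. None of the 8 is on the macrophage list used here, and each was highest on knockout replicate 1 or wild-type replicate 1. Platr6, for example, read 6.46, 6.12 and 6.14 in the knockout and 6.42, 6.33 and 6.41 in the wild type. With this many genes and 6 arrays such values are a description only.

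Other macrophage genes also differed little. Of 23 measured (24 listed), 14 lay below 0 and 9 above, with a median of -0.03, and 0 had an unadjusted limma p under 0.05. Csf1r, the receptor for the macrophage growth factor, read 6.03 to 6.09 in knockout and 6.03 to 6.17 in wild-type arrays, and the haemoglobin scavenger receptor gene Cd163 differed by 0.03 (95% interval -0.19 to 0.24). Trem2, a lipid receptor gene, was the list's gene of smallest p, at 6.60, 6.54 and 6.62 in the knockout and 6.95, 6.72 and 6.78 in the wild type. Its groups did not overlap, and its difference of -0.23 (SE 0.10) did not pass limma's test (adjusted p = 1.00). Clec4f and the apolipoprotein gene Apoe differed by -0.20 and -0.15. The mean deviation of this list was 0.08, -0.07 and -0.05 in the knockout and 0.05, -0.04 and 0.03 in the wild type.

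Genes of the uptake of dead cells had a median of -0.05 (19 measured of 20), with 13 below 0. Of the 19, 1 gene, Megf10, had an unadjusted limma p under 0.05. The groups did not overlap for 4 of the 19 with the knockout lower and for 0 with it higher. Over all 22180 genes the groups did not overlap for 1149 with the knockout lower and for 781 with it higher. Both directions together made up 8.70%. Megf10, an engulfment receptor gene known from glia, differed by -0.26 (SE 0.11, limma adjusted p = 1.00). Stab2, a scavenger receptor gene of sinusoidal endothelium, and Itgav, the integrin chain that binds the bridging protein MFGE8, differed by -0.27 (SE 0.12) and -0.17 (SE 0.09). Beyond C1q, complement genes had a median of -0.01 (16 measured of 19), with 1 under an unadjusted p of 0.05. This was C4b, whose protein is cleaved by the protease bound to C1q, at 5.47 ± 0.15 in the knockout and 5.79 ± 0.06 in the wild type (SD, n = 3 each), a dim probe set with a difference of -0.32 (SE 0.11, limma adjusted p = 1.00). C3ar1 and Cr2, complement receptor genes, differed by -0.21 and 0.21. The genes of the proteases that C1q activates, C1ra and C1s1, differed by -0.14 and 0.13.

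On the erythroblast side of the island, Itga4 and Itgb1, the chains of the integrin that binds VCAM1, read well above the array medians, with means of 11.94 and 10.84. They differed by -0.06 (95% interval -0.26 to 0.14) and 0.05 (95% interval -0.20 to 0.30). Maea, the erythroblast macrophage protein, differed by 0.02, and Spn, which encodes the sialylated CD43 bound by CD169, by -0.02. The 13 genes listed as adhesion partners, of macrophage and erythroblast alike, had a median of 0.02, and 0 had an unadjusted limma p under 0.05. Efnb2, Rb1 and Ephb4, the genes of smallest p in that list, differed by 0.27, 0.11 and -0.13.

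**Figure D4:**
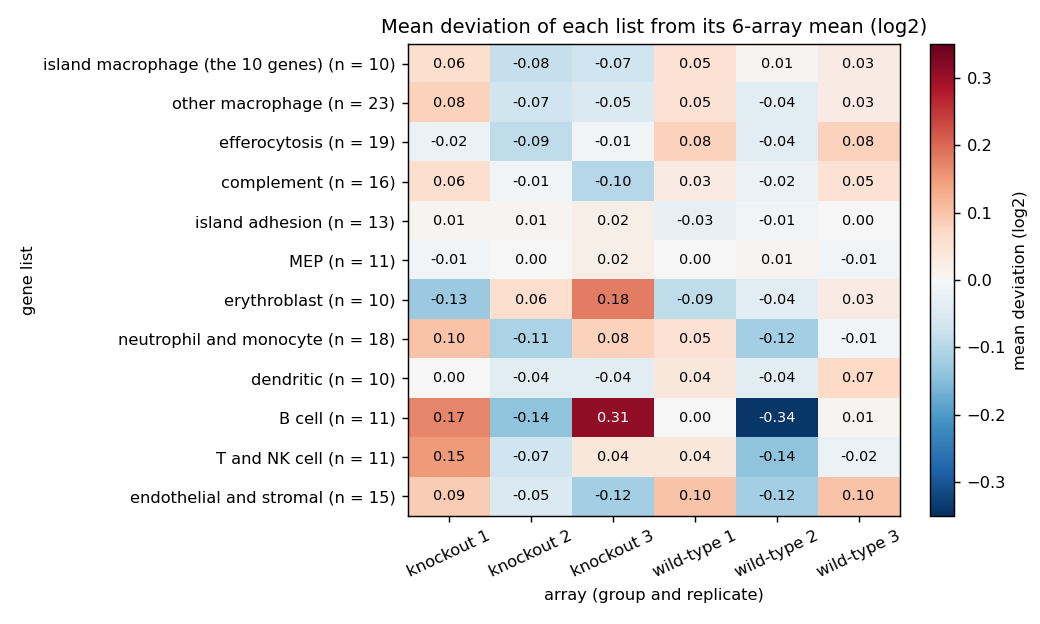
Mean deviation (log2) of 12 gene lists (vertical axis, with the number of measured genes) from their own mean over the 6 arrays (horizontal axis), red above and blue below. The 10 island macrophage genes span -0.08 to 0.06 and the B cell list -0.34 to 0.31.

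Markers of other cell types that a MEP sort could hold were read on the same arrays. In each list the 3 genes named first are those of smallest limma p, so they need not stand for the list. Neutrophil and monocyte genes had a median difference of 0.02 (18 genes, 0 under an unadjusted limma p of 0.05), with Csf3r, Ly6g and S100a8 at -0.19, 0.29 and 0.39. The median of dendritic genes was -0.05 (10 genes, 0), with Ciita, Xcr1 and Itgax at -0.21, -0.14 and -0.12. Of these 10 genes, 7 lay below 0 and 3 above, up to 0.12 for H2-Aa. B cell genes had a median of 0.14 (11 genes, 0), with Cd79a, Ebf1 and Prdm1 at 0.56, 0.54 and 0.14. Among the 11, 8 lay above 0 and 3 below, down to -0.10 for Jchain. For T and NK cell genes the median was 0.11 (11 genes, 0), with Cd4, Prf1 and Lat at 0.27, 0.29 and -0.27. Endothelial and stromal genes, whose cells also make Vcam1, had a median of -0.04 (15 genes, 1 under 0.05, Col1a2), with Col1a2, Flt4 and Pdgfrb at -0.39, -0.25 and -0.21. Of these 15 genes, 11 lay below 0 and 4 above, up to 0.35 for Cxcl12. Their mean deviation, 0.09, -0.05 and -0.12 in the knockout and 0.10, -0.12 and 0.10 in the wild type, was above 0 on the 3 arrays of highest Vcam1 signal, knockout replicate 1 and wild-type replicates 1 and 3, and so were the means of the other macrophage and the complement lists. Those 3 arrays also had the highest medians over all probe sets, at 6.53, 6.51 and 6.47. The part of endothelial and stromal cells in the Vcam1 signal was not tested. Erythroblast genes had a median of 0.07 (10 genes, 0), with Epb42, Sptb and Fech at 0.25, 0.16 and 0.17. Among these 10, 8 lay above 0 and 2 below, Slc4a1 at -0.09 and Tspo2 at -0.07. MEP genes had a median of 0.01 (11 genes, 1 under 0.05, Itga2b), with Itga2b, Klf1 and Epor at -0.34, 0.12 and 0.11. None of these genes passed limma's adjusted p.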

How the data were processed

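The 6 arrays were grouped by sample title. Per the submitters' processing notes, the values were made with Affymetrix Expression Console 1.4.1.46; the deposited table holds 1 log2 signal per probe set. The sources used here do not give the background correction, normalization or summarisation. The log base was inferred from the values (0.99 to 14.23). An annotation table gave 1 gene symbol to 23521 of 41345 probe sets, several to 1814, and none to 16010; gene IDs gave current RefSeq symbols (GRCm38.p6; 23328 matched). Each gene took its probe set of highest mean.

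All 41345 probe sets were fitted together with limma 3.58.1 in R 4.3.3 (lmFit, eBayes; knockout minus wild type, no covariate) with Benjamini-Hochberg adjustment; the code was tested on simulated data. SE and intervals are limma's. Permutation tests were 2-sided. Members, lists and tests were chosen with earlier results of these data known. Besides the members, the text names in each list the 3 genes of smallest p, genes known to act with a member or to mark a cell type, the 8 genes most like the members' mean, and the checks. Upstream sequences are RefSeq's.

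Replicate numbers 1 to 3 recur in both groups. Deviations from group means of same-numbered arrays correlated at 0.285, 0.116 and 0.115 over 1 probe set per gene. Correlations of differently numbered arrays are not given beside them, so these values do not show that animals were paired. The numbers were treated as pairs only in the alternative with a replicate block.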

Additional observations from a re-analysis of the deposited data

How the results depend on the processing

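No alternative called any of the 10 genes. The alternatives were a further quantile normalization, centred arrays, limma-trend, array weights, leaving out dim probe sets, named probe sets alone, the mean of a gene's probe sets (here the same 1 probe set each), a replicate block, sex-linked class as a block, leaving out the arrays with both Xist and Y-linked signal, leaving out each array, and an adjusted p of 0.1. C1qa, C1qb, C1qc, Vcam1 and Cd5l kept their direction wherever they were measured; C1qa ran from -0.55 to -0.17, C1qc from -0.31 to -0.11, C1qb from -0.16 to -0.03, Vcam1 from -0.29 to -0.01 and Cd5l from 0.03 to 0.23. With the paired fit (replicate block) C1qa was -0.31 (limma adjusted p = 0.805), and the block changed no call.

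The difference changed sign in 15 of 156 fits of single genes, all of Adgre1, Spic, Siglec1, Axl or Mertk. Mertk was -0.08 with array weights and -0.01 with the sex-linked block, where Axl was 0.02. Without the arrays with both Xist and Y-linked signal, a fit of 1 knockout array against 2, Adgre1 was -0.04, Spic 0.03, Siglec1 0.13 and Axl 0.15. Leaving out 1 array gave -0.01 to 0.22 for Adgre1, -0.09 to 0.05 for Axl, -0.07 to 0.14 for Mertk, -0.16 to 0.02 for Siglec1, -0.23 to -0.04 for Spic, -0.16 to -0.03 for C1qb, -0.22 to -0.01 for Vcam1 and 0.08 to 0.23 for Cd5l. The cause was not tested. Probe sets called numbered 1 with centred arrays, 1 with array weights, 1 at an adjusted p of 0.1, and 0 to 2 when 1 array was left out; limma's main count was 0, with 2033 at an unadjusted p under 0.05. The number of arrays limits the precision.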
